A study of Mus musculus with 17 samples.

Results

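The muscle miRNAs examined here are mature microRNAs (miRNAs, small RNAs that repress matching messenger RNAs) of 7 names known from heart and skeletal muscle: mmu-miR-1a, mmu-miR-133a, mmu-miR-133b, mmu-miR-206, mmu-miR-208a, mmu-miR-208b and mmu-miR-499. Rows of these names, of either arm of the precursor, were taken where their deposited values summed to at least 20 over 14 libraries. Of 1033 miRNAs in the table, 12 rows carried the names and 4 of them passed: mmu-miR-208b-3p, mmu-miR-1a-3p, mmu-miR-133a-3p and mmu-miR-499-5p. They were thus chosen by their measured values summed over all libraries. The sums were 739 for miR-208b-3p, 364 for miR-1a-3p, 351 for miR-133a-3p and 59.9 for miR-499-5p, the member nearest to the limit. Just outside lay miR-133b-3p with 13.8 and miR-208a-3p with 10.5. The other 6 rows held 1 or 2 reads each.

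Small RNA was sequenced from the mouse embryonic stem cell (ESC) lines D3 and B8 before and during differentiation. ESCs are pluripotent cells of the early embryo that LIF, a cytokine, keeps undifferentiated in culture. The groups were D3 at day 0 (3 libraries), D3 at day 7 (2 libraries, replicates 2 and 3), D3 at day 21 (3 libraries), B8 at day 7 (3 libraries) and B8 at day 0 (3 libraries). Day 0 cells were grown with LIF and no feeder layer. At day 7 embryoid bodies, aggregates made as hanging drops, were collected, and at day 21 their outgrowths, a mixed culture. Embryoid bodies and outgrowths of both lines were kept without LIF, with retinoic acid (RA), an insulin, transferrin and selenium mix (ITS) and N2 supplement. B8 at day 21 was not analysed here. All libraries carry the label of embryonic stem cells as tissue, at day 7 and day 21 as well.

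In mouse and other vertebrates miR-1 and miR-133a are processed from shared transcripts in heart and skeletal muscle, where miR-1 favours differentiation of muscle cells and miR-133 is known to act on their proliferation. The genes of miR-208a, miR-208b and miR-499 lie inside myosin heavy chain genes and are expressed with them: Myh6 encodes the main myosin of the adult mouse heart, Myh7 that of the fetal heart and of slow skeletal fibres, and Myh7b a related myosin. miR-206 and miR-133b are transcribed together, mainly in skeletal muscle. Embryoid bodies are a known source of beating heart muscle cells in culture.

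Of the 12 rows, 9 were matched to a mature sequence among the RefSeq (GRCm38.p6) entries used here, including 2 of the 4 members. A row without a match may still have a sequence in RefSeq outside these entries. Sequences are written 5′ to 3′ with the seed, bases 2 to 8, in capitals. The first 3 are shown because they share all or most of a seed. The last 2 are shown because they are relatives of miR-133a and miR-1a that fell under the limit of the rule.
mmu-miR-208b-3p: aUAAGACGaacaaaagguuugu
mmu-miR-208a-3p: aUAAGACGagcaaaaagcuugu
mmu-miR-499-5p: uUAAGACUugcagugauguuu
mmu-miR-133b-3p: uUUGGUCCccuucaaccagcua
mmu-miR-206-3p: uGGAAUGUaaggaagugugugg
miR-208b-3p and miR-208a-3p had the same seed and were identical at 19 of 22 bases. No other of the 1679 mature mouse miRNAs among the entries used held this seed. Their differences were A10G, G16A and U18C, with the base of miR-208b-3p first and positions counted from 1 at the 5′ end. The seed of miR-499-5p was identical to that of miR-208b-3p at 6 of 7 bases and differed by G8U, in the same notation.

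By the GENCODE M21 annotation of GRCm38, the build that mm10 names, Mir208b (chr14:54975700-54975776, minus strand) lay in an intron of Myh7 on the same strand. Mir208a (chr14:54949060-54949142, minus strand) lay in an intron of Myh6, with 26557 bases between the 2 precursors. Mir499 (chr2:155622880-155622958, plus strand) lay in an intron of Myh7b. Mir1a-1 (chr2:180389048-180389124) and Mir133a-2 (chr2:180398379-180398482) were 9254 bases apart on the plus strand and overlapped no annotated host gene. Their other copies, Mir1a-2 and Mir133a-1, lay in introns of the antisense RNA gene Mir133a-1hg on the same strand and of Mib1 on the opposite strand. Mir206 (chr1:20679010-20679082) and Mir133b (chr1:20682769-20682887) were 3686 bases apart on the plus strand, both overlapping exons of the long noncoding RNA Gm28653. Mature miR-1a-3p and miR-133a-3p each come from more than 1 precursor, so their reads belong to no single locus.

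Each deposited value is the read count of a miRNA over a library factor, and whole reads could be recovered in every library. D3 libraries held 56377 to 129486 such reads (day 0), 1008438 to 1060306 (day 7) and 547213 to 743039 (day 21), and B8 libraries 141823 to 256613 (day 7) and 138397 to 275271 (day 0). A floor of 3 reads per library, as a group mean, was worth 1.89 (day 0), 2.25 (day 7) and 1.02 (day 21) in D3 and 2.72 (day 7) and 2.01 (day 0) in B8. Shares are given in RPM, reads per 1000000 miRNA reads of the library. As a check of the label, the 12 rows of the miR-290 to miR-295 cluster, the main miRNAs of undifferentiated ESCs, summed to 198414 to 249601 RPM (day 0), 6597 to 6766 RPM (day 7) and 10473 to 12299 RPM (day 21) in D3. The sums in B8 were 59595 to 106242 RPM (day 7) and 256198 to 286986 RPM (day 0), and none of the 12 was at 0 in any group.

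All 4 muscle miRNAs were at their highest in D3 outgrowths at day 21, which chose them: these libraries held 98.4% of the summed value of miR-208b-3p, 94.9% for miR-1a-3p, 93.6% for miR-133a-3p and 74.4% for miR-499-5p. The day 21 differences are therefore a description, with no test. In bulk samples like these, fewer cells of a type and less RNA per cell cannot be told apart.

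miR-208b-3p, the miRNA of the Myh7 intron, had deposited values of 1.04, 0 and 0 in D3 at day 0, and of 2.35 and 5.01 at day 7. At day 21 it had 117, 365 and 245, from 353, 1236 and 617 reads. Each day 21 library stood far above all others, and day 0 rested on 2 reads in all. The mean was 0.345 ± 0.598 (SD, n = 3) at day 0, 3.68 ± 1.88 (SD, n = 2) at day 7 and 242 ± 123.7 (SD, n = 3) at day 21. The ratio of pooled reads at the deposited scale was 66.2 (exact 95% interval 35.9 to 138.2) for day 21 against day 7 and 617 (171 to 5098) for day 21 against day 0. PCR copies are not separate molecules, so these intervals and floors hold for counting error alone. They also take the deposited factors as given. As a share of pooled reads, miR-208b-3p made up 1103 RPM at day 21, 4.83 RPM at day 7 and 6.51 RPM at day 0.

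miR-1a-3p, of the heart and skeletal muscle pair, had 0 reads in all 3 D3 libraries at day 0 and values of 5.48 and 7.16 at day 7. At day 21 it had 50.5, 203 and 91.5, from 152, 689 and 230 reads. The highest library held more than the other two together, and the lowest was still above both day 7 libraries. The means were 115 ± 79.1 at day 21 and 6.32 ± 1.18 at day 7, so that day 21 was at least 60.9-fold above the floor of day 0. Against day 7 the ratio was 18.9 (11.7 to 32.6).

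miR-133a-3p, its cluster partner, had 0, 0.539 and 0 in D3 at day 0 and 7.05 and 7.87 at day 7. At day 21 its values were 54.1, 176 and 99.0, from 163, 595 and 249 reads. The same library was highest as for miR-1a-3p. Day 21 averaged 109.5 ± 61.4 and day 7 averaged 7.46 ± 0.583, a ratio of 15.1 (9.72 to 24.8). Against the single read of day 0 the ratio was 563 (101 to 22272).

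miR-499-5p, of the Myh7b intron, was the least abundant member, with 0, 0.539 and 0 in D3 at day 0 and 2.35 and 3.58 at day 7. At day 21 it had 8.63, 15.6 and 20.3, from 26, 53 and 51 reads. By deposited value its highest library was replicate 3, where the other members had theirs in replicate 2. By share of reads its replicates 2 and 3 were level, at 71.3 and 71.8 RPM. The ratio of day 21 against day 7 was 4.87 (2.40 to 11.5), and against the single read of day 0 it was 72.7 (12.8 to 2894).

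**Figure D1:**
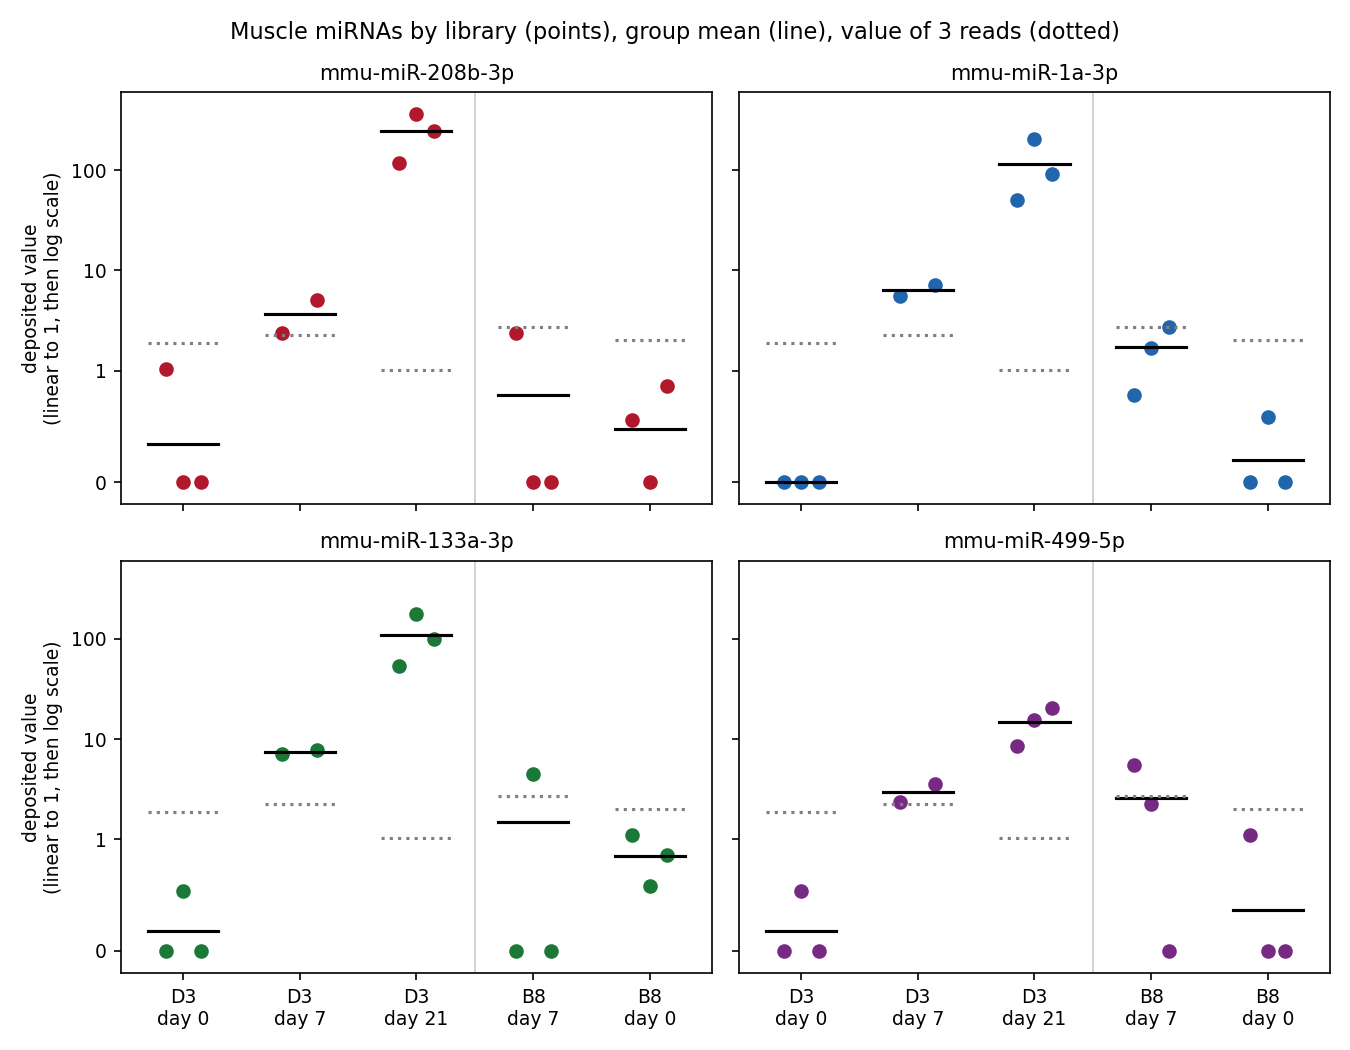
Deposited value of the 4 muscle miRNAs in each library (points), on an axis that is linear to 1 and logarithmic above, with the group mean as a line and the value of 3 reads as a dotted line. The D3 libraries at day 21 are highest in each panel, and for miR-208b-3p they lie at 117 to 365, while most values of B8 and of D3 at day 0 are under the dotted line.

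On the log2 scale of a limma fit, day 21 exceeded day 0 in D3 by 8.28 ± 0.66 (SE) for miR-208b-3p, 7.68 ± 0.54 for miR-1a-3p, 7.32 ± 0.67 for miR-133a-3p and 4.56 ± 0.72 for miR-499-5p. All 4 members had no overlap of libraries, where 67.6% of the 521 miRNAs tested had all day 21 values above those of day 0. Against day 7 the differences were 5.80 ± 0.74, 3.87 ± 0.60, 3.63 ± 0.75 and 2.10 ± 0.80 in the same order, again without overlap. All day 21 values were above those of day 7 for 14.4% of the miRNAs tested. Column totals differed up to 17.7-fold between libraries, so each difference was also taken on a relative scale. This scale used median-of-ratios factors over 319 miRNAs above 0 in all libraries. On it the median of all 521 miRNAs tested was 0.41 for day 21 against day 0 and 0.012 for day 21 against day 7. On this relative scale the differences from day 7 were 6.30, 4.47, 4.26 and 2.59 and those from day 0 were 7.54, 7.18, 6.66 and 3.91. Of all miRNAs, 32.4% had all day 21 values above those of day 7 on it, and 41.5% above those of day 0.

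Single libraries moved these folds. Without replicate 2 of day 21, miR-1a-3p averaged 70.97, at least 37.6-fold above the floor of day 0 and 11.2-fold above day 7, against 18.2-fold from the means of all libraries. Without replicate 3 of day 7, the fold of miR-208b-3p between the means of day 21 and day 7 was 103 in place of 65.9. Without replicate 1 of day 0 no read of miR-208b-3p remained at day 0, and day 21 was at least 118-fold above the floor. Without replicate 2 of day 0 the same held for miR-133a-3p, at least 54.1-fold, and for miR-499-5p, at least 7.33-fold.

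The relatives of the members were left out by the rule because their values summed to under 20. Their low level in D3 at day 21 follows from this rule and is a description. miR-208a-3p, which shares the seed of miR-208b-3p and comes from the adult heart myosin gene Myh6, had 7, 17 and 8 reads at day 21 and none in the other 11 libraries. miR-133b-3p had 6, 20 and 13 reads at day 21 and 1 read in D3 at day 7. miR-206-3p, the partner of miR-133b in skeletal muscle, had 1, 0 and 1 reads, 2 of 2000758 in all (exact 95% interval 0.121 to 3.61 RPM). The remaining 5 rows were the other arms of precursors named above (miR-208a-5p, miR-133a-5p, miR-133b-5p, miR-499-3p and miR-208b-5p), and their 1 or 2 reads were likewise all from D3 at day 21. Summed over the 12 rows, the muscle names held 0 to 2 reads in the D3 cells of day 0, 23 and 33 in the embryoid bodies of day 7, and 709, 2614 and 1170 in the outgrowths of day 21.

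As shares of all miRNA reads, a measure free of the deposited factors, miR-208b-3p made up 645, 1663 and 868 RPM in the day 21 libraries and ranked 96 by mean share among 869 miRNAs above 0. miR-1a-3p made up 278, 927 and 324 RPM and miR-133a-3p 298, 801 and 350.5 RPM. miR-499-5p made up 47.5, 71.3 and 71.8 RPM, rank 266. In D3 at day 7, where the libraries held the most reads, these 4 ranked 435, 391, 373 and 453 among 780 miRNAs. With reads pooled, miR-1a-3p made up 535 RPM at day 21 and 8.22 RPM at day 7 of D3. The same shares were 503 and 9.67 RPM for miR-133a-3p and 65.0 and 3.87 RPM for miR-499-5p. By share the rise from day 7 was larger than at the deposited scale, and that from day 0 smaller where day 0 had reads.

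**Figure D2:**
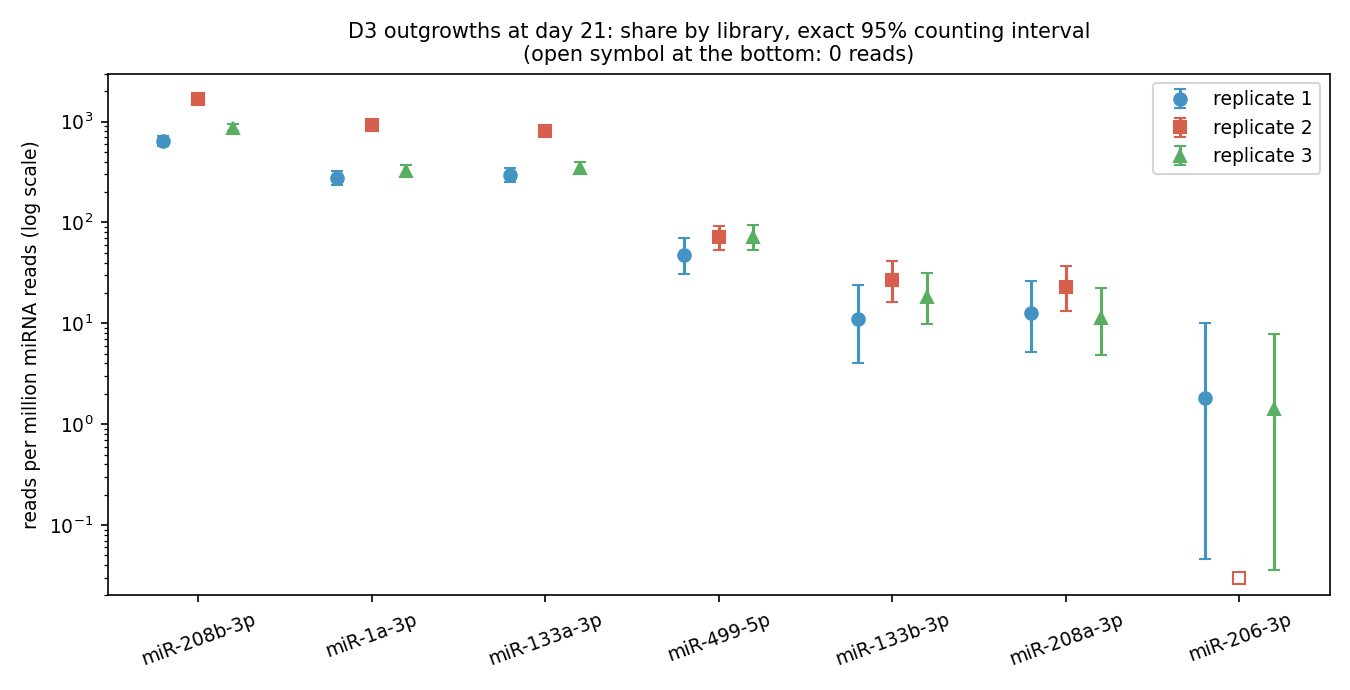
Share of miRNA reads, in reads per 1000000 (RPM) on a log axis, of the 4 members and 3 relatives in each D3 library at day 21, with exact 95% counting intervals and an open symbol for 0 reads. miR-208b-3p leads in each library, miR-1a-3p and miR-133a-3p lie close together, miR-499-5p lies at 47.5 to 71.8 RPM, and miR-133b-3p, miR-208a-3p and miR-206-3p lie below.

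Within a library the order of read counts was clear at both ends and tied in the middle. Small RNA reads span the whole mature miRNA, so reads of different miRNAs were compared without a length correction. Whether different miRNAs entered the libraries equally well was not tested, so the ratios are of reads and not of molecules. The read ratio of miR-208b-3p over miR-133a-3p was 2.17, 2.08 and 2.48 at day 21, with a mean of 2.24 ± 0.21 (SD, n = 3). That of miR-208b-3p over miR-1a-3p was 2.32, 1.79 and 2.68. miR-1a-3p and miR-133a-3p did not differ beyond the spread of libraries: their ratio was 0.933 (exact 95% interval 0.743 to 1.17), 1.16 (1.04 to 1.29) and 0.924 (0.769 to 1.11), with a mean of 1.005 ± 0.133. miR-1a-3p over miR-499-5p gave 5.85, 13 and 4.51, the ratio that varied most. Of the pairs with a related sequence, miR-208b-3p exceeded miR-208a-3p by 50.4, 72.7 and 77.1 times and miR-133a-3p exceeded miR-133b-3p by 27.2, 29.8 and 19.2 times. The rule for reads that match several miRNAs is not given in the sources used here, so the counts of such close relatives are uncertain one by one.

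The spread between the day 21 libraries was large for 3 of the members. The coefficient of variation of the share was 71.1% for miR-1a-3p, 57.2% for miR-133a-3p and 50.5% for miR-208b-3p, ranks 2, 3 and 4 among the miRNAs with at least 100 reads at day 21, whose median was 12.8%. miR-499-5p was at 21.8%, rank 58. Replicate 2 held 3.08 times the mean share of the other libraries for miR-1a-3p, 2.47 times for miR-133a-3p and 2.20 times for miR-208b-3p, but 1.20 times for miR-499-5p. Of the miRNAs so ranked, 99 (34.0%) were highest in replicate 2. The miRNA with the largest spread, miR-215-5p, known from intestine and kidney, was at 128.8% and high in replicate 3.

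Replicate 2 was not set apart in most of the other cell type lists. For other striated muscle miRNAs (miR-378a, miR-486a, miR-486b and miR-490) it held 1.04 times the mean summed share of the other libraries, and for smooth muscle and mesenchyme miRNAs (miR-143, miR-145a, miR-199a, miR-199b and miR-214) 1.02 times. Neural miRNAs were at 1.15 times and miRNAs of undifferentiated ESCs at 0.986 times. Blood and endothelial miRNAs (miR-126a, miR-142a, miR-144, miR-223 and miR-451a) were at 1.48 times, and summed to 2469, 3863 and 2736 RPM in the 3 libraries. Their part in the spread of the muscle miRNAs was not tested.

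**Figure D3:**
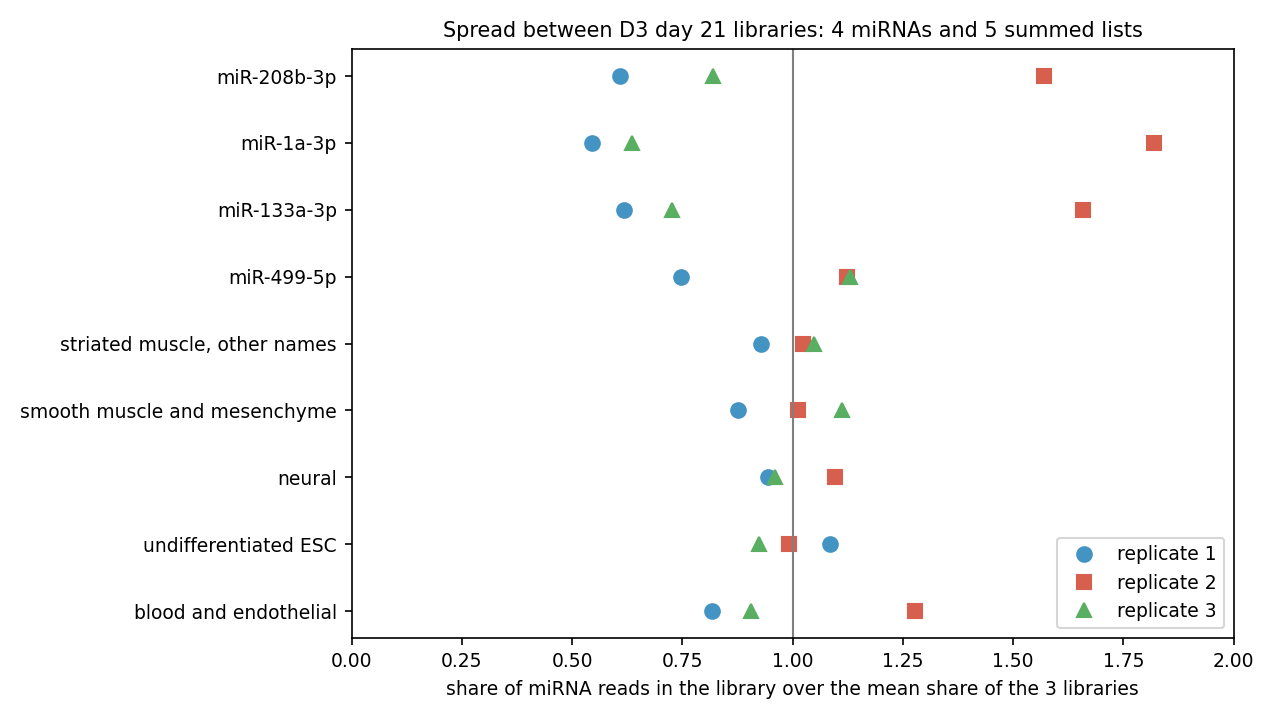
Share of miRNA reads in each D3 library at day 21 divided by the mean share of the 3 libraries, for the 4 members and 5 summed lists. For miR-1a-3p, miR-133a-3p and miR-208b-3p replicate 2 lies above 1.5 and the other replicates below 1, while the other striated muscle list has a coefficient of variation of 6.36%.

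By day 7 of D3 differentiation all 4 members were higher than in D3 at day 0 on the deposited scale. The log2 difference was 3.81 ± 0.60 (SE) for miR-1a-3p (limma adjusted p = 4.1e-06), 3.68 ± 0.75 for miR-133a-3p (adjusted p = 0.00011), 2.49 ± 0.74 for miR-208b-3p (adjusted p = 0.0039) and 2.46 ± 0.80 for miR-499-5p (adjusted p = 0.0078). Both day 7 libraries were above all 3 day 0 libraries for each, as for 73.9% of the 521 miRNAs tested. This comparison was past the threshold of 0.05 and higher for 70.4% of them, whose median log2 difference was 2.25, so a count of 4 of 4 is close to the background. On the relative scale, where 36.1% were higher, miR-1a-3p (2.71, adjusted p = 0.0010) and miR-133a-3p (2.40, adjusted p = 0.026) were past the threshold, and miR-208b-3p (1.23, adjusted p = 0.23) and miR-499-5p (1.32, adjusted p = 0.22) were not. Replicates are not described as separate cultures in the labels, so the p-values rest on a spread between libraries that may be technical only.

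The day 7 levels rested on few reads. miR-1a-3p had 7 and 10 reads, miR-133a-3p 9 and 11, miR-208b-3p 3 and 7, and miR-499-5p 3 and 5. miR-1a-3p was at least 3.34-fold above the floor of day 0. As a share, its 8.22 RPM at day 7 (exact 95% interval 4.79 to 13.2) was within the limit of 9.76 RPM that 0 of 307289 reads allows at day 0, so a difference in share was not detectable at this depth. For miR-133a-3p the ratio of day 7 over day 0 was 37.3 (5.97 to 1546) at the deposited scale, and its shares were 9.67 RPM (5.91 to 14.9) at day 7 and 3.25 RPM (0.0824 to 18.1) at day 0. The share of miR-208b-3p was 4.83 RPM (2.32 to 8.89) at day 7 and 6.51 RPM (0.788 to 23.5) at day 0, and that of miR-499-5p was 3.87 RPM (1.67 to 7.62) at day 7 and 3.25 RPM (0.0824 to 18.1) at day 0. The intervals of the share overlapped between the days for all 4 members, and no difference in share was detectable at this depth. Without replicate 3 of D3 at day 7, miR-208b-3p (adjusted p = 0.063) and miR-499-5p (adjusted p = 0.063) were no longer past the threshold. Without replicate 2 of day 0, no read of miR-133a-3p was left there and day 7 was at least 3.68-fold above the floor.

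In B8 the members stayed near the limit of detection at both days. miR-1a-3p had 1, 3 and 2 reads at day 7 and 0, 1 and 0 at day 0, values of 0.784, 1.68 and 2.74 against 0, 0.585 and 0. It was the 1 member past the threshold (log2 difference 1.72 ± 0.54, limma adjusted p = 0.0096, relative 1.92 with adjusted p = 0.0076), where 21.9% of miRNAs rose on the deposited scale and 26.9% on the relative one. Both means, 1.74 ± 0.982 and 0.195 ± 0.338, were under the value of 3 reads, so no fold is given. The call was lost by edgeR (adjusted p = 0.083) and by DESeq2 (adjusted p = 0.088) on recovered reads, and with the B8 groups fitted alone (adjusted p = 0.054).

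The other members did not pass in B8 by limma. miR-499-5p had 7, 4 and 0 reads at day 7 and 2, 0 and 0 at day 0, with a log2 difference of 1.47 (95% interval -0.01 to 2.95, adjusted p = 0.090). edgeR on recovered reads did call it (2.57, adjusted p = 0.023). Leaving out replicate 3 of day 7 brought it past the threshold by limma (2.48, adjusted p = 0.0023), as did leaving out replicate 1 of day 0 (2.02, adjusted p = 0.032). miR-133a-3p had 0, 8 and 0 reads at day 7 and 2, 1 and 1 at day 0, and its difference of -0.33 ± 0.67 (adjusted p = 0.69) became -1.43 (adjusted p = 0.033) without replicate 2 of day 7, which held all its day 7 reads. miR-208b-3p had 3, 0 and 0 reads at day 7 and 1, 0 and 1 at day 0, a difference of -0.01 ± 0.66 (adjusted p = 0.99).

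At day 0 no member was past the threshold between the lines. The log2 differences of D3 against B8 were -0.31 ± 0.66 for miR-208b-3p (limma adjusted p = 0.73), -0.38 ± 0.54 for miR-1a-3p (0.59), -1.09 ± 0.67 for miR-133a-3p (0.20) and -0.21 ± 0.72 for miR-499-5p (0.84). For miR-133a-3p the D3 libraries, at 0, 0.539 and 0, all lay below those of B8, at 1.11, 0.585 and 0.864, from 0 or 1 read each in D3 and 1 or 2 in B8. Of all 521 miRNAs 52.4% were separated in this direction, and the other 3 members overlapped. By limma, edgeR and DESeq2 alike 0 of 4 passed, also at an unadjusted p under 0.05. At the adjusted threshold 47.0% of the 521 miRNAs passed in either direction by limma. edgeR called 237 of them and DESeq2 called 229. In either line each group mean was under 3 reads at this day, and the pooled reads of the 12 rows were 4 of 307289 in D3 and 9 of 665923 in B8.

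At day 7 the deposited values of D3 were above those of B8 for 3 members. miR-133a-3p had 7.05 and 7.87 in D3 and 0, 4.47 and 0 in B8, a log2 difference of 2.92 ± 0.75 (limma adjusted p = 0.0013). miR-208b-3p had 2.35 and 5.01 in D3 and 2.35, 0 and 0 in B8 (2.18 ± 0.74, adjusted p = 0.010), and miR-1a-3p had 5.48 and 7.16 in D3 and 0.784, 1.68 and 2.74 in B8 (1.71 ± 0.60, adjusted p = 0.014). The lowest D3 value of miR-208b-3p was level with the highest of B8. For miR-133a-3p and miR-1a-3p both D3 libraries were above all of B8, as for 69.5% of all miRNAs. miR-499-5p was not past the threshold (0.77 ± 0.80, adjusted p = 0.39). Of all miRNAs 66.0% were higher in D3, with a median of 1.71. On the relative scale, where 24.8% were higher, 0 of 4 passed: the differences were 1.69, 1.16, 0.42 and -0.33 for miR-133a-3p, miR-208b-3p, miR-1a-3p and miR-499-5p, with adjusted p = 0.15, 0.30, 0.62 and 0.79. At an unadjusted p under 0.05 none passed there either. At the deposited factors edgeR called 3 of the 4 members, and 395 of all 521 miRNAs in either direction. DESeq2 called 1 member and 354 of all miRNAs. The summed share of the 12 rows was 27.2 ± 7.80 RPM in D3 (n = 2) and 39.8 ± 23.0 in B8 (n = 3). With reads pooled, miR-499-5p made up 3.87 RPM (exact interval 1.67 to 7.62) in D3 and 17.4 RPM (8.66 to 31.0) in B8. These counting intervals did not overlap, but 1 B8 library had 0 reads of it. The intervals of the other members overlapped. Their shares in D3 and B8 were 8.22 and 9.47 RPM (miR-1a-3p), 9.67 and 12.6 (miR-133a-3p), and 4.83 and 4.73 (miR-208b-3p). Without replicate 3 of D3 at day 7, miR-133a-3p was the 1 member still past the threshold on the deposited scale, with adjusted p = 0.12 for miR-208b-3p and 0.099 for miR-1a-3p. The call of miR-1a-3p was also lost without replicate 1 of B8 (adjusted p = 0.059), and that of miR-208b-3p without replicate 2 of B8 (adjusted p = 0.051).

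The change from day 0 to day 7 was larger in D3 than in B8 on the deposited scale for miR-133a-3p by 4.02 ± 1.01 on log2 (limma adjusted p = 0.0011), for miR-208b-3p by 2.497 ± 0.989 (adjusted p = 0.027) and for miR-1a-3p by 2.09 ± 0.81 (adjusted p = 0.024). miR-499-5p did not pass (0.99 ± 1.08, adjusted p = 0.41). For all miRNAs the median of this difference was 2.64 and 71.8% passed in this direction. miR-208b-3p and miR-1a-3p lay below that median. On the relative scale the median of all miRNAs was 0.49 and 20.7% passed. There 0 of the 4 members passed, with miR-133a-3p nearest at 2.63 (limma adjusted p = 0.10). DESeq2 on recovered reads called 0 members and edgeR called 1, miR-133a-3p. Of all 521 miRNAs, DESeq2 called 330 and edgeR 354 in either direction. At an unadjusted p under 0.05 the relative scale and DESeq2 each gave 1 member. On the deposited scale the call of miR-208b-3p was lost without any of 6 libraries in turn (replicates 2 and 3 of D3 at day 0, replicate 3 of D3 at day 7, replicates 2 and 3 of B8 at day 7 and replicate 3 of B8 at day 0), with adjusted p = 0.060 to 0.12. That of miR-1a-3p was lost without any of 3 in turn (replicate 3 of D3 at day 7, replicate 1 of B8 at day 7 and replicate 2 of B8 at day 0), with adjusted p = 0.061 to 0.084.

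**Figure D4:**
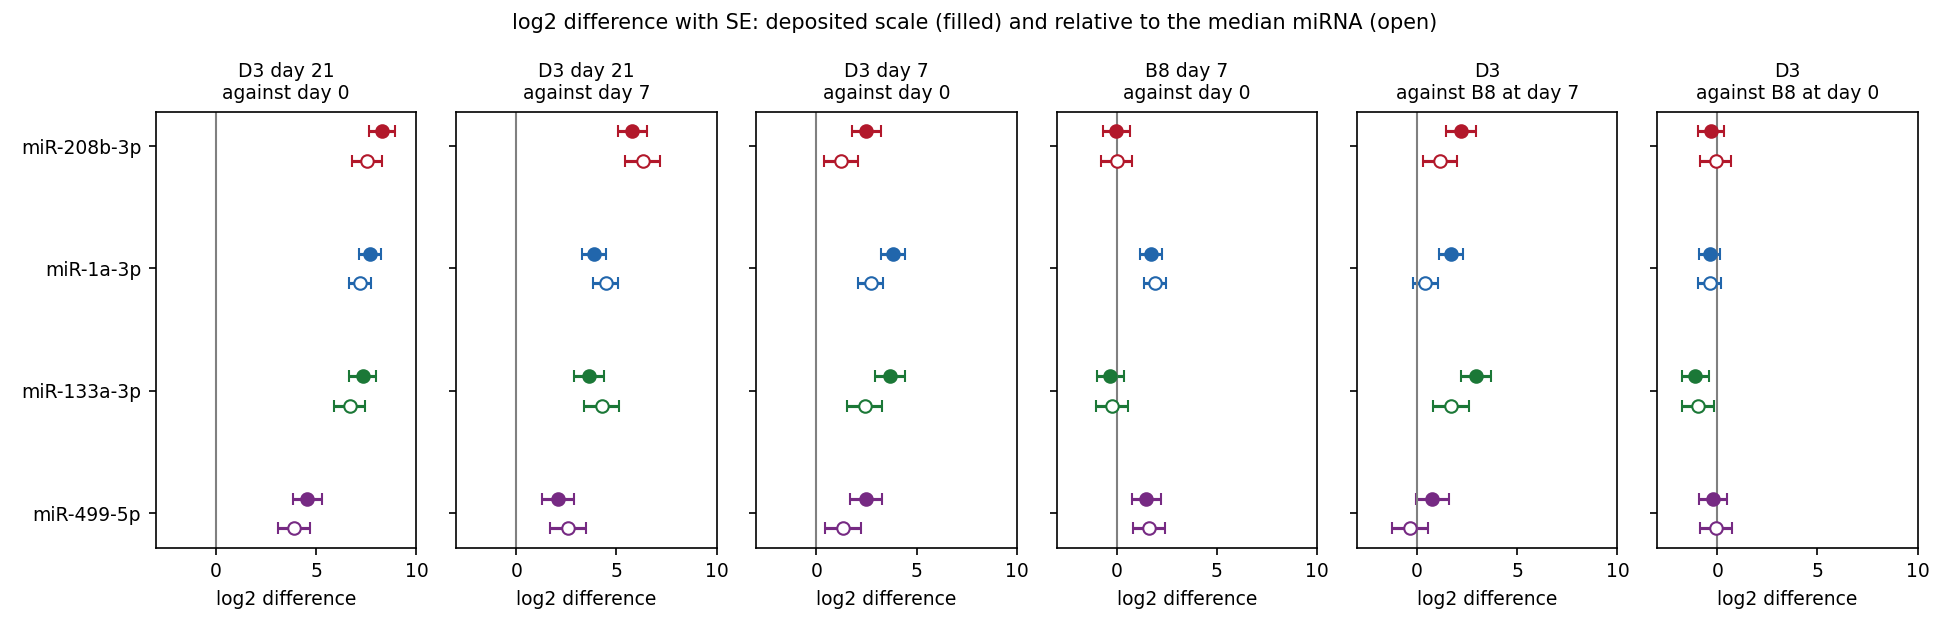
Log2 difference with its SE for each member in 6 comparisons of the limma fit, on the deposited scale (filled) and on the relative scale of median-of-ratios factors (open). The 2 day 21 panels are a description of the libraries that chose the members, and the open symbols of the D3 against B8 panel at day 7 lie at -0.33 to 1.69.

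Other muscle lists were set beside these members in D3, with the lists taken by name. Of 4 other striated muscle miRNAs that passed the filter on low values, out of 8 rows, 4 were higher and 0 lower at day 21 than at day 0 on both scales, with a median log2 difference of 3.78 against 1.69 for all miRNAs and 65.3% of all called higher (38.2% on the relative scale). Among them miR-378a-3p, encoded in Ppargc1b and known from heart and other tissues rich in mitochondria, rose by 2.83 ± 0.26 (limma adjusted p = 6.5e-10, relative 1.26), and miR-486a-5p, a miRNA of muscle and red blood cells, by 3.53 ± 0.34 (adjusted p = 1.4e-09, relative 2.01). From day 7 to day 21 the list had 1 higher and 1 lower, where 8.06% of all miRNAs were higher (16.5% on the relative scale): miR-378a-3p rose by 1.26 ± 0.29 (adjusted p = 0.0017) and miR-486a-5p differed by -1.09 ± 0.38 (adjusted p = 0.026, relative -0.36 with adjusted p = 0.49). The summed share of this list was 1301 to 1756 RPM in D3 at day 0, 509 to 710 at day 7 and 2913 to 3292 at day 21, and in B8 it was 508 to 740 RPM (day 7) and 831 to 919 RPM (day 0). At day 0 of D3, 5 of its 8 rows were at 0.

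Smooth muscle and mesenchyme miRNAs were on a different level and time course. Their summed share was 1938 to 2519 RPM in D3 at day 0, 10160 to 13781 at day 7 and 55501 to 70486 at day 21, and in B8 it was 4745 to 14586 RPM (day 7) and 15610 to 18599 RPM (day 0). All 9 were higher at day 21 than at day 0 on both scales, with a median of 7.40, where 65.3% of all miRNAs were higher (38.2% on the relative scale), among them miR-143-3p of smooth muscle (5.76 ± 0.24, limma adjusted p = 6.4e-17) and miR-199b-3p of mesenchyme (8.90 ± 0.31, adjusted p = 2.7e-18). All 9 were also higher at day 7 than at day 0 on both scales, by a median of 8.03, where 70.4% of all miRNAs were higher (36.1% on the relative scale) with a median of 2.25. From day 7 to day 21 the deposited scale gave 2 higher and 1 lower and the relative scale 5 and 0, where 8.06% of all miRNAs were higher and 31.5% lower on the deposited scale and 16.5% and 10.6% on the relative one.

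Neural miRNAs moved the other way late in the course, in the same D3 libraries where the muscle miRNAs were highest. All 10 that passed the filter on low values were higher at day 21 than at day 0 (7 on the relative scale), where 65.3% of all miRNAs were (38.2% on the relative scale), but from day 7 to day 21 none rose and 7 fell (5 on the relative scale), where 31.5% of all miRNAs fell (10.6% on the relative scale). miR-9-5p, of neural progenitors, was lower by 2.83 at day 21 than at day 7 (log2 difference -2.83 ± 0.34, limma adjusted p = 9.0e-07), and their summed share was 7357 to 8533 RPM at day 21 and 14069 to 14591 at day 7. Of 5 blood and endothelial miRNAs 4 were higher and 0 lower at day 21 than at day 0 (3 and 1 on the relative scale), beside the same 65.3% and 38.2% of all miRNAs higher. From day 7 to day 21 2 were higher and 2 lower (2 and 0 on the relative scale), where 8.06% of all miRNAs were higher and 31.5% lower (16.5% and 10.6% on the relative scale). Their summed share in D3 was 1082 to 1251 RPM at day 0, 1963 to 2237 at day 7 and 2469 to 3863 at day 21, where 1 of the 8 rows, miR-144-3p, was at 0. The part of these cell types in the levels of the muscle miRNAs was not tested.

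Over the 14 libraries, on relative log2 values, likeness to the members was measured by Pearson r. miR-1a-3p and miR-133a-3p had r = 0.90, miR-208b-3p had 0.88 with miR-1a-3p and 0.86 with miR-133a-3p, and miR-499-5p had 0.78 to 0.81 with the others. Outside the names, miR-208b-3p was nearest to let-7b-3p (0.90), miR-26b-5p (0.88) and miR-148a-3p (0.87). miR-1a-3p was nearest to miR-375-3p, miR-30d-5p and miR-193b-3p (0.92 each). miR-133a-3p was nearest to miR-223-3p (0.92), miR-152-3p (0.90) and miR-26b-5p (0.90), and miR-499-5p to miR-378d (0.91), miR-193b-3p (0.87) and miR-203-3p (0.85). These values describe 5 groups of libraries that share their depth and their factors, and most of the members' points sit at or under 3 reads. Levels did differ among the nearest: miR-148a-3p averaged 3130 ± 1462 at day 21 of D3 and 290.9 ± 69.7 at day 0, whereas miR-223-3p was at 0 in all D3 libraries of day 0 and day 7 and averaged 5.47 ± 1.13 at day 21.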

How the data were processed

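Small RNA libraries of D3 and B8 cells were analysed from the authors' table of mature miRNAs. The authors deposited a signal for each miRNA, its reads over a library factor, under the name TMM. The submitters' processing notes name, without versions, CASAVA and FastQC, the aligner Bowtie with the mm10 genome, and Partek, and the file headers mention cutadapt and a step called length. How reads matching several miRNAs were counted is not given in the sources used here. Dividing a library's values by its smallest gave whole numbers within 0.01 for 100% of values up to 1000, taken as recovered reads, though total sequencing depth stays unknown. Of 17 labelled samples in 6 groups, 14 in 5 groups were used; B8 outgrowths (day 21, 3 samples) were not analysed here, and 1 column without a sample label was not used.

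Rows with a mean of at least 5 RPM (reads per 1000000 of the column total) were kept: 521 of 1033 miRNAs, with all 4 members. Without the D3 day 21 libraries miR-208b-3p and miR-1a-3p would be under this limit. These miRNAs and miR-499-5p would then also be under the summed value of 20. Their day 0 and day 7 tests are thus of members kept through day 21. Log2 of the value plus 0.48 (2 RPM at the mean column total) was fitted with limma 3.58.1 (R 4.3.3): group means of all 5 groups, trended prior, 9 residual degrees of freedom, 2-sided tests, Benjamini-Hochberg over the kept miRNAs, threshold 0.05. Fold changes are on that scale, which understates the change of low miRNAs. Tests for members were made where the summed value that chose them does not come from the contrast; day 21 contrasts give no p for them. The members and lists were chosen with earlier results of these data known. Named miRNAs were the members, the 2 rows nearest under the limit and those with a shared or related seed, the 3 of highest Pearson r with each member, and up to 2 of the most abundant of each list. Alternatives were pseudocounts of 0.2 and 10 RPM, other filters, equal column totals, median-of-ratios and TMM factors, an untrended prior, a replicate block, fits of the compared groups alone, edgeR 4.0.16 and DESeq2 1.42.0 on recovered reads with the deposited factors, and leaving out each library. The model was tested on simulated data. Replicates differed beyond counting noise in each pair. Exact intervals came from scipy 1.17.1.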

Additional observations from a re-analysis of the deposited data

Results flagged for a closer look

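For 3 of the 4 muscle miRNAs the change from day 0 to day 7 differed between the lines D3 and B8 in the test of that difference by limma. On the deposited scale the log2 difference was 4.02 for miR-133a-3p, 2.497 for miR-208b-3p and 2.09 for miR-1a-3p, larger in D3 (adjusted p = 0.0011, 0.027 and 0.024). Over all 521 miRNAs the median was 2.64 and 71.8% passed in this direction, so 3 of 4 is close to the background. On the relative scale the differences were 2.63, 1.24 and 0.80, where the median of all miRNAs was 0.49 and 20.7% passed. No member passed there (limma adjusted p = 0.10, 0.46 and 0.50), with 1 of the 4 members at an unadjusted p under 0.05.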

How the results depend on the processing

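Each day 21 difference of the members was above 0 under each alternative run. The day 21 libraries held most of the summed value that chose the members, so this sign is a description and not a test. The replicate numbers did not pair the libraries: of 26 pairs with the same number 2 had deviations correlated above 0.1 (median 0.018), and 4 of 14 libraries were most like their own number. With the replicate block 4 members were past the threshold for D3 day 7 against day 0, and no other count changed with the block either.

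Members past the threshold in D3 at day 7 against day 0 numbered 1 with equal column totals and 2 with median-of-ratios or TMM factors, in place of 4. For D3 against B8 at day 7 they numbered 0 under these 3 scalings and 1 by DESeq2 or with the compared groups alone, in place of 3. For the interaction of line and day they numbered 0 under the 3 scalings and by DESeq2, and 1 by edgeR, without the filter or with the pseudocount of 0.2 RPM, in place of 3. For B8 at day 7 against day 0 they numbered 0 by DESeq2, with the pseudocount of 10 RPM or with the compared groups alone, in place of 1. Leaving out each library gave 2 to 4 members for D3 day 7 against day 0, 1 to 3 for D3 against B8 at day 7, 1 to 3 for the interaction, and 1 to 2 for B8. The lowest of the D3 ranges came without replicate 3 of D3 at day 7. The number of all 521 miRNAs past the threshold, in either direction, moved too. With median-of-ratios factors it went from 403 to 329 for D3 day 7 against day 0. For D3 against B8 at day 7 it went from 392 to 216, and to 354 by DESeq2. For the interaction it went from 387 to 173, and to 354 by edgeR and 330 by DESeq2. For B8 it went from 260 to 232 by DESeq2. It is not given for the other settings, so the member counts are no result about the members alone.

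Differences that turned direction were of members not past the threshold, except miR-1a-3p in D3 against B8 at day 7, at -0.14 with equal totals. In B8, miR-208b-3p turned to 0.080 with the pseudocount of 10 RPM, 0.79 by edgeR and 0.89 by DESeq2, and ran from -0.86 to 0.41 as each library was left out (0.11 and 0.30 without replicates 1 and 3 of day 0). miR-133a-3p there turned to 0.070, 1.19 and 1.08 and ran from -1.43 to 0.23. miR-499-5p in D3 against B8 turned to -0.84, -0.33 and -0.38 at day 7 with equal totals, median-of-ratios and TMM factors, ran from -0.25 to 1.56 as libraries were left out, and at day 0 turned to 0.023 with equal totals and ran from -0.56 to 0.36. In the interaction it turned to -0.86, -0.29 and -0.37 and ran from -0.035 to 1.77. The filter at 50 RPM dropped miR-499-5p. The cause of these changes was not tested. Read numbers limit the values of day 7 and day 0: none of the 4 members had more than 11 reads in any of those libraries, against at least 26 in each D3 library of day 21.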
